A study of Mus musculus with 48 samples.

Results

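The genes described here are 10 pigment and melanocyte identity genes, Tyr, Tyrp1, Dct, Pmel, Mlana, Mitf, Sox10, Slc45a2, Gpnmb and Mc1r, out of 55486 genes in the deposited count table. They were taken by symbol. The list was chosen by their log2 fold changes in the authors' deposited comparison of knockout and wild-type tumour cells, so those values are given below as a description. The study asked what the loss of QPCTL, an enzyme that forms pyroglutamate at protein ends, changes in tumours and lymphoid organs of mice of the strain QPCTL-KO C57/Bl6JR. CD45-negative tumour cells came from 12 mice at day 14 after inoculation with B16F10, a pigmented mouse melanoma line. Of these mice, 6 were homozygous QPCTL-KO and carried QPCTL-KO B16F10 cells, and 6 were wild-type littermates carrying wild-type B16F10 cells, so host and tumour genotype changed together and cannot be told apart. Live CD45-negative cells had been isolated by flow cytometry, a gate that keeps tumour cells together with other cells lacking that leukocyte marker. Whole spleen and whole bone marrow came from uninoculated mice aged 10 to 15 weeks, 8 of each organ, 4 homozygous QPCTL-KO and 4 wild-type littermates.

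The count columns name the tissue and a running number but not the genotype, so every group used here mixes both genotypes in equal number and its spread includes any genotype difference. Libraries are called below by that running number, which gives no order. The 20 lymph node columns do not show which of them came from tumour-bearing mice, so a trace of these genes in lymph node was not analysed here. Library totals ran from 54117 to 510363 counts in tumour, with a median of 305146.5, from 219229 to 626316 in spleen and from 227240 to 637985 in marrow, against a stated average of 18 M reads per sample. Tumour library 4 had the lowest total. The kit marks strand, but the strand setting with which reads were counted is not given in the sources used here. Where a non-coding gene lies opposite a coding gene, the non-coding one had more tumour counts in 80.6% of 1232 pairs, and mt-Nd6, encoded on the other mitochondrial strand, had 6.78 to 51.6 times the counts of mt-Co1 in all 28 libraries. Whether reads were assigned to the opposite strand was not tested, and if they were, each level, fold and spread given below, for all 10 genes, rests on the reads of the other strand and not on the gene's own messenger RNA. Tumour libraries 10, 11 and 12 stood apart in the share of counts in genes that have at least 50 exonic bases in common with a gene on the opposite strand. It was 84.7%, 86.4% and 87.0% in them and 69.0% to 80.5% in the other 9 tumour libraries, and their TMM factors (trimmed mean of M-values, the scaling of a library), 0.886, 0.836 and 0.785, were the lowest of the 12. Qpctl itself had 1 to 6 counts per tumour library and shares 471 exonic bases with a gene on the opposite strand. In the authors' deposited table the log2 fold change of Qpctl was 0.69 with an adjusted p of 0.494, and the table does not state which genotype a positive value favours.

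Melanocytes make melanin inside melanosomes, lysosome-related organelles that mature on a fibrillar matrix. Tyrosinase (Tyr) starts melanin synthesis from tyrosine, and Tyrp1 and Dct, its relatives, act further along the eumelanin branch. MITF, a basic helix-loop-helix transcription factor switched on with the help of SOX10, drives many of these genes, and the melanocortin receptor MC1R raises MITF through cyclic AMP. B16F10 derives from a C57BL/6 melanoma and keeps this programme.

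MITF binds E-boxes of the sequence CATGTG, in pigment genes often extended to a longer M-box. Promoters from the RefSeq table on GRCm38.p6, 250 bases before to 50 bases after each start site, were given for 6 of the 10 genes, namely Tyr, Tyrp1, Dct, Mc1r, Gpnmb and Mitf, the last with 3 start sites. CATGTG, read on both strands, was found in 4 of these 8 promoters, those of Tyr, Tyrp1, Dct and Mc1r, and in 14.2% of all 32851 promoters of the table. The 7-base form TCATGTG, which contains CATGTG, was in the same 4 promoters and in 3.77% of all. The 11 letters AGTCATGTGCT, the match in Tyr with its neighbours, were searched after the letters had been read and were in the promoters of Tyr and Tyrp1 and in 7 promoters of the table, 0.0213%. CACGTG, the other E-box that MITF binds, was in none of the 8 and in 7.15% of all. The 30 bases around the match on the gene's strand are shown for each of the 4 genes because they let the letters beside the shared core be compared; capitals mark CATGTG.
Tyr, chr7:87493516-87493545, minus strand: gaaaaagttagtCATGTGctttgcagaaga
Tyrp1, chr4:80834155-80834184, plus strand: tggggagggagtCATGTGctgcctagtagt
Dct, chr14:118052379-118052408, minus strand: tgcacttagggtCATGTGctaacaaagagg
Mc1r, chr8:123407019-123407048, plus strand: gcacatgcccatCATGTGgccaccctcagg
The core starts 21 bases before the RefSeq start site in Tyr, 46 in Tyrp1, 150 in Dct and 51 in Mc1r. Dct and Mc1r hold a further CATGTG on the opposite strand, read as CACATG, 232 and 62 bases before the start. The whole 250 bases before the start are shown for Dct, which has a pair of matches, and for Gpnmb, which has none in this window, since both were among the 4 genes with the highest level per length in tumour cells.
Dct, chr14:118052247-118052496, minus strand: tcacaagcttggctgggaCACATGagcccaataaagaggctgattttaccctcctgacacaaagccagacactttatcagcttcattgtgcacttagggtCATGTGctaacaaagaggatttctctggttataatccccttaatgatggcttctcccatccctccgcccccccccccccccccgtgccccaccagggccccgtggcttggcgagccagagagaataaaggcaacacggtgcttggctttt
Gpnmb, chr6:49036268-49036517, plus strand: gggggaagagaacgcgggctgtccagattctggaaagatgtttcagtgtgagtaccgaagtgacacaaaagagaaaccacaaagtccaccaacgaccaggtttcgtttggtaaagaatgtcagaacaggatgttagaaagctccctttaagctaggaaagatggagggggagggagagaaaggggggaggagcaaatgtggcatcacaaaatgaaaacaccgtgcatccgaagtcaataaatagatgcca
A match is a description of the letters and no evidence of binding, and the absence of these letters in Gpnmb covers only this window.

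All 10 genes were read in each of the 12 tumour libraries, and together they took 0.235% to 0.845% of a library's counts, with a median of 0.648%. In spleen they took 0.00282% to 0.0269% and in marrow 0.00445% to 0.0112%, so the tumour range lay above both organs. In these bulk samples, fewer cells of a type and less RNA per cell cannot be told apart. The levels that follow are counts per 1000000 counts of the library (CPM) after TMM scaling, given as the lowest, the median and the highest library.

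Among the melanin enzymes, Dct (ENSMUSG00000022129, GRCm38 chromosome 14, 118012790 to 118052244) stood at 1043, 2117 and 2523 CPM. Tyrp1 (ENSMUSG00000005994, chromosome 4, 80834123 to 80851719) reached 330.0, 1187 and 1785 CPM. Tyr (ENSMUSG00000004651, chromosome 7, 87424771 to 87493512), the enzyme at the head of the pathway, stood at 29.5, 133 and 166 CPM. Dct had no read in any of the 16 spleen and marrow libraries, and neither had Tyr. Tyrp1 had 1 read in spleen and none in marrow.

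Of the structural and transport genes, Pmel (ENSMUSG00000025359, chromosome 10, 128704195 to 128720238) encodes the fibril protein of the melanosome and stood at 373, 786 and 1041 CPM in tumour. Mlana (ENSMUSG00000024806, chromosome 19, 29697824 to 29708634), a melanosomal membrane protein that associates with PMEL, stood at 17.1, 99.7 and 148 CPM. Slc45a2 (ENSMUSG00000022243, chromosome 15, 11000721 to 11029233), a melanosomal transporter, stood at 35.4, 146 and 199 CPM. Gpnmb (ENSMUSG00000029816, chromosome 6, 49036546 to 49070929), a PMEL-related glycoprotein that macrophages and osteoclasts also make, stood at 524, 1287 and 2005 CPM. Slc45a2 had no read in either organ, Mlana 1 read in marrow and none in spleen, and Gpnmb 9 reads in all of spleen and 12 in all of marrow.

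Of the regulators, Mitf (ENSMUSG00000035158, chromosome 6, 97807052 to 98021349) had 107, 197 and 342 CPM in tumour, with 7 reads in all of spleen and 5 in all of marrow. Sox10 (ENSMUSG00000033006, chromosome 15, 79154908 to 79165240), a neural crest transcription factor, had 105, 210 and 259 CPM. Mc1r (ENSMUSG00000074037, chromosome 8, 123407107 to 123410744), the receptor for melanocyte-stimulating hormone, had 12.4, 24.4 and 54.6 CPM from 2 to 30 counts a library. Sox10 and Mc1r had no read in spleen or marrow.

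Levels of different genes can be set side by side only per length. By median CPM per kilobase of exon in tumour, the order was Tyrp1 at 420, Dct at 359, Pmel at 343, Gpnmb at 198, Mlana at 94.4, Sox10 at 68.9, Slc45a2 at 49.0, Mitf at 31.8, Tyr at 18.8 and Mc1r at 6.70. Exon length pools all annotated transcripts, so a gene with long alternative exons, such as Tyr at 7108 bases, is placed low by it. The ranges over the 12 libraries overlapped in all 9 neighbouring pairs of this order. Such ranges ignore that the genes were read in the same libraries, so they do not show whether neighbours kept their order within each library.

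**Figure D1:**
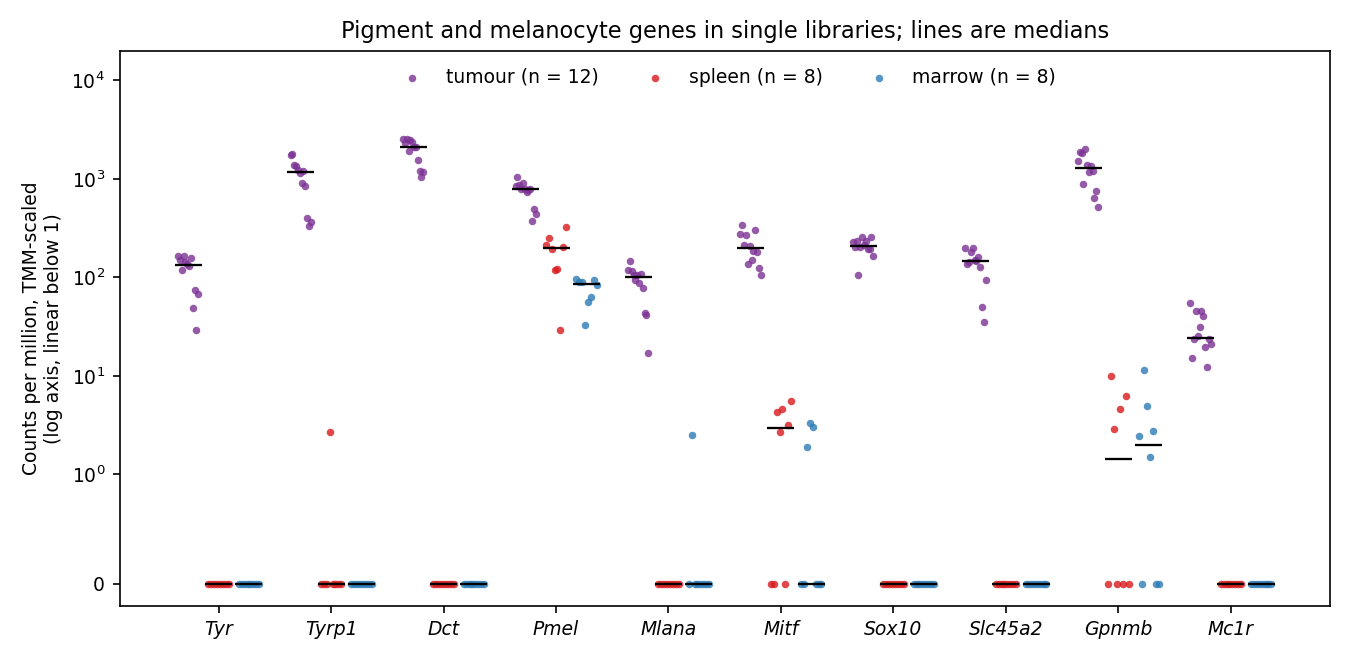
Each point is the TMM-scaled CPM of a gene in a library, on a log axis that is linear below 1, for 12 tumour (purple), 8 spleen (red) and 8 marrow (blue) libraries, and black lines are medians. Tumour points lie above those of both organs for all 10 genes, and Pmel is the gene with reads in every spleen and marrow library.

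The design allows a test of tumour cells against each organ, which also sets sorted cells of a tumour against whole organs. With edgeR's quasi-likelihood test, 9 of the 10 genes had enough counts to be tested, and 9 of 9 were called higher in tumour than in spleen, at an adjusted p below 0.05 and a log2 fold change of at least 1, where 21.6% of all 5143 tested genes were. Against marrow, 9 of 9 were called higher, where 22% of tested genes were. Apart from Pmel, the tested genes had 0 to 12 reads over all libraries of an organ. They could pass the count filter only through their tumour reads, so these counts are not support for a difference by themselves. Mc1r was not tested, having too few counts.

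Where an organ held no read, the fold was bounded by taking 3 counts over the organ's libraries. Dct was then at least 1786-fold higher in tumour than in spleen and at least 2355-fold higher than in marrow. Sox10 was at least 191-fold and at least 252-fold higher, Slc45a2 at least 124-fold and 164-fold, Tyr at least 106.1-fold and 139.9-fold, and Mc1r at least 27.4-fold and 36.1-fold. Gpnmb was 386-fold higher than in spleen, with a 95% counting interval of 204 to 845, and 382-fold higher than in marrow, with an interval of 219 to 739. Mitf was 81.9-fold higher than in spleen (39.7 to 204) and 151-fold higher than in marrow (64.7 to 465). These intervals cover counting error only.

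Pmel differed from the other 9 genes in being read in every spleen and marrow library. Spleen held 507 Pmel counts in all and marrow 259. Its level was 29.0, 199 and 321 CPM in spleen and 32.9, 86.0 and 95.4 CPM in marrow, so the highest spleen library lay below the lowest tumour library at 373 CPM. Pmel was higher in tumour than in spleen by 2.02 on the log2 scale (SE 0.26, edgeR adjusted p = 1.3e-08) and higher than in marrow by 3.31 (SE 0.28, edgeR adjusted p = 3.845e-13). It was also higher in spleen than in marrow by 1.29 (SE 0.28, edgeR adjusted p = 3.338e-04), the single one of the 10 genes called there, where 11.1% of tested genes were called higher in spleen. The spleen and marrow ranges overlapped, because spleen library 6 had 29.0 CPM from 7 counts.

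Of the 9 listed melanocyte markers, 6 had no read in spleen and 6 had none in marrow. The others had reads there, and the strand from which these reads came was not tested. Slc24a5, which encodes a melanosomal cation exchanger, had 956 spleen and 856 marrow counts, more than Pmel, and like Pmel it overlaps a gene on the opposite strand, Myef2. The 9 markers summed to 394 to 917 CPM in spleen and 207 to 491 CPM in marrow, nearly all of it Slc24a5 and Pmel, while Tyrp1 in spleen and Mlana in marrow gave 1 read each. Pmel ends tail to tail with Dgka (ENSMUSG00000025357, minus strand, 128720134 to 128744855), which encodes a diacylglycerol kinase found in lymphocytes. Their last exons share 105 bases, 128720134 to 128720238, in the untranslated part of both transcripts. Spleen held 125 Dgka counts beside the 507 of Pmel, and marrow 101 beside 259. Over the 8 spleen libraries log2 CPM of the pair had r = 0.86 (rho 0.62), and over the 8 marrow libraries r = 0.25 (rho 0.38), values that share library and depth. In tumour, with 2606 Pmel and 368 Dgka counts, r was -0.48 over 12 libraries. Spleen library 6, lowest in Pmel, had 1 Dgka count, and its summed leukocyte markers were 257 CPM against 537 to 1502 in the other 7. Dgka differed between spleen and marrow by 0.60 on the log2 scale with an edgeR adjusted p of 0.129. Whether reads of Dgka were counted to Pmel was not tested.

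Mc1r has a similar neighbour. Gm38092 (ENSMUSG00000103244, an unconfirmed transcript class, minus strand, chromosome 8, 123408100 to 123408752) lies wholly within the single exon of Mc1r and shares 653 bases with it, 355 coding and 298 untranslated. In tumour Gm38092 had 4754 counts and Mc1r 107, which is 44.4 times as many. Gm38092 had 2 counts in spleen and 3 in marrow. Its tumour level was 976, 1311 and 2321 CPM. Across the genome, of 1232 pairs of a non-coding gene and a coding gene opposite it with at least 100 tumour counts together, 993 (80.6%) had more counts on the non-coding gene. With the strand setting of the counting not known, the Mc1r level is the most uncertain of the 10, and the doubt holds for the others too. 4930435M08Rik, an antisense gene inside Dct that shares no exonic base with it and was picked after its values were seen, had 185 tumour counts and none in spleen or marrow.

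**Figure D2:**
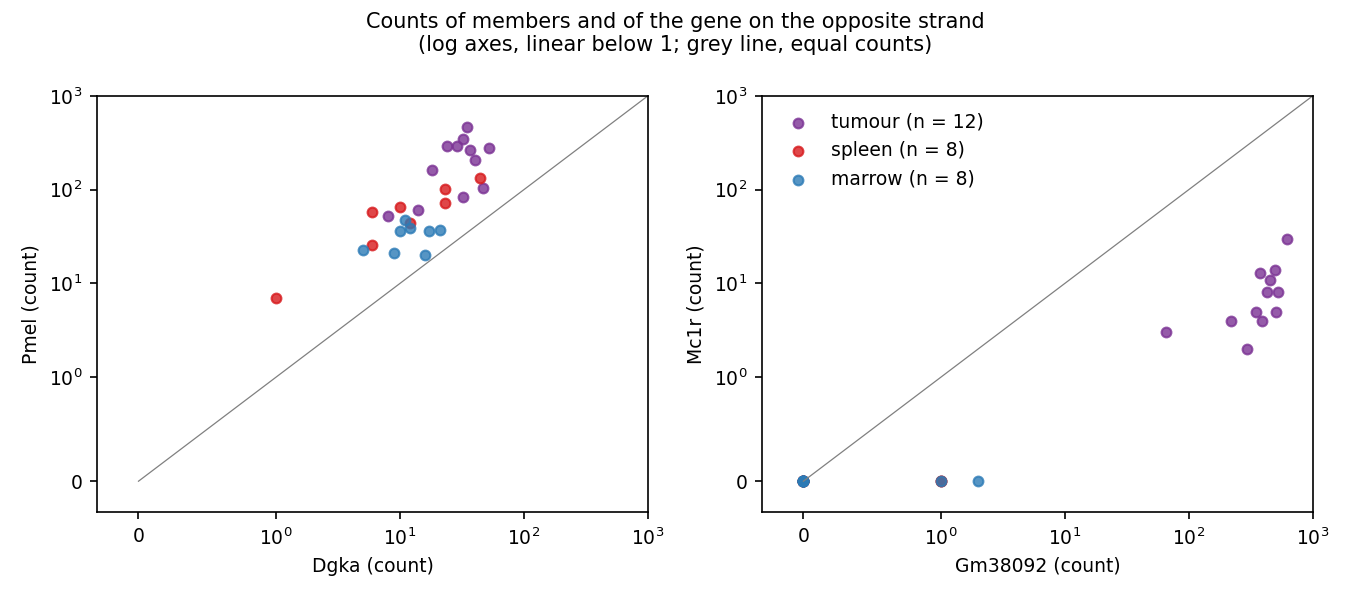
Left, counts of Pmel (vertical) against Dgka (horizontal) per library; right, Mc1r against Gm38092; log axes are linear below 1, and the grey line marks equal counts. All 12 tumour libraries have more Gm38092 than Mc1r counts, and Pmel exceeds Dgka in all 28 libraries.

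Within tumour the 10 genes varied by different amounts. Over 12 libraries the coefficient of variation of CPM was 47.2% for Tyrp1, 45.4% for Mc1r, 42.6% for Mlana, 41.4% for Tyr, 39.03% for Gpnmb, 38.8% for Slc45a2 and 36.3% for Mitf. It was 28.8% for Dct, 27.1% for Pmel and 20.4% for Sox10. Counting alone would give 40.4% for Mc1r, 22.5% for Mlana, 20.2% for Tyr and 14.2% for Sox10, but 6.49% for Tyrp1, 5.70% for Gpnmb and 4.74% for Dct. For Mc1r the value from counting lay close to the whole of its spread. Set against genes within 1.5-fold of its mean level, Tyrp1 varied more than 98.2% of 168 genes and Gpnmb more than 95.6% of 135. Sox10 varied more than 11.96% of the 577 genes at its level, whose median was 28.03%. Genes chosen by a fold change between tumour groups tend to vary more, so nothing is read from these ranks. The median over the 10 was 38.9%, beside 52.4% over 10142 genes with a mean of at least 5 CPM and 27.6% over 1483 genes of at least 100 CPM.

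The libraries at the low end were largely the same for the different genes. The list was chosen by fold changes between tumour groups, all of 1 sign. Such a choice favours genes that move together, so the shared low end is a description only. Tyrp1 had 404, 330.0 and 367 CPM in tumour libraries 10, 11 and 12 and 849 to 1785 CPM in the other 9. Dct had 1192, 1043 and 1185 CPM in those 3 libraries and 1553 to 2523 in the rest, and Pmel had 373, 495 and 443 CPM against 731 to 1041. Gpnmb had 640, 748 and 524 CPM against 886 to 2005, Mlana 43.5, 41.2 and 17.1 against 77.7 to 148, and Slc45a2 49.7, 35.4 and 93.8 against 126 to 199. For these 6 genes the 3 libraries did not overlap the other 9. The share of all genes that separate in this way was not counted, so nothing particular to the 6 is read from it. Tyr was lowest in library 11 at 29.5 CPM, and library 9, at 48.5, was lower than libraries 10 and 12. Mitf was lowest in library 12 at 107 CPM, while library 10, at 180 CPM, lay within the range of the rest.

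Sox10 followed only in part. It had 192.5 and 166.2 CPM in libraries 10 and 12, below its mean of 208.2 CPM. Its highest value, 259 CPM, was in library 11, where Tyrp1, Dct, Tyr and Slc45a2 had their lowest. Its lowest, 105 CPM, was in library 4, the shallowest, from 7 counts. Mc1r was lowest in library 10 at 12.4 CPM, with library 2 next at 15.1 CPM.

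**Figure D3:**
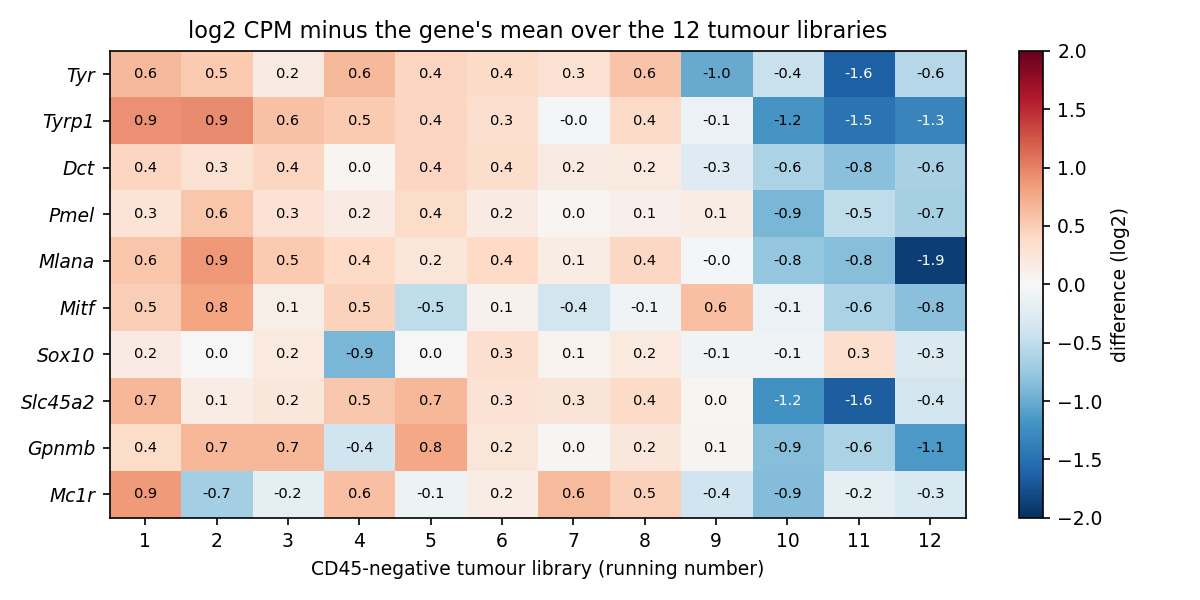
Rows are the 10 genes and columns the 12 tumour libraries; colour and number give log2 CPM minus the gene's own mean over the 12. Libraries 10 to 12 are blue for 9 of the 10 genes, and Sox10 is above its mean in library 11.

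Pearson's r of log2 CPM over the 12 libraries ran from -0.18 to 0.94 over the 45 pairs, with a median of 0.60. Scaled to the counts in genes without an opposite-strand overlap, the median was 0.35 and the lowest -0.46. From TMM-scaled log2 CPM, as in the values that follow, the highest was between Tyrp1 and Dct. Sox10 had a median r of -0.01 with the other 9 genes, Mitf 0.46 and Mc1r 0.38, against 0.87 for Dct. Without libraries 11 and 12 the median over all pairs was 0.49, and without libraries 10, 11 and 12 it was 0.34. These are descriptions of 12 libraries whose genes share depth and scaling. The genes were also chosen by fold changes of the same sign between tumour groups, which favours positive r, so nothing is read from their size. The median coefficient of variation was 22.9% without libraries 10, 11 and 12, and then Tyrp1 had 24.9%, Dct 14.8% and Pmel 11.3%.

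These are the 3 libraries with the largest share of counts in genes overlapping an opposite-strand gene, given above, a measure from which the 10 genes were left out. The mean of 9 of the genes, each centred and scaled to unit SD over the libraries and leaving out Mc1r for its low counts, was -1.09, -1.26 and -1.37 there and -0.07 to 0.85 elsewhere. Over the 12 libraries this mean had r = -0.78 (rho -0.72) with the overlap share, and r = -0.96 without libraries 4 and 12, the farthest on that share. The points fall into separate clusters, so these values describe the plot and were not tested. The share and the CPM both rest on the counts of the same library, so they are not independent. Scaled instead to the counts in genes without such an overlap, the 3 libraries still had the lowest means, -0.90, -1.01 and -1.10, against -0.37 to 0.81. The median coefficient of variation was then 33.0%. The r with the overlap share was then -0.63 (rho -0.59) over the 12 libraries and -0.93 without libraries 4 and 12. On that scale Sox10 was highest in library 11 as well, and the lowest Mitf value moved to library 5.

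**Figure D4:**
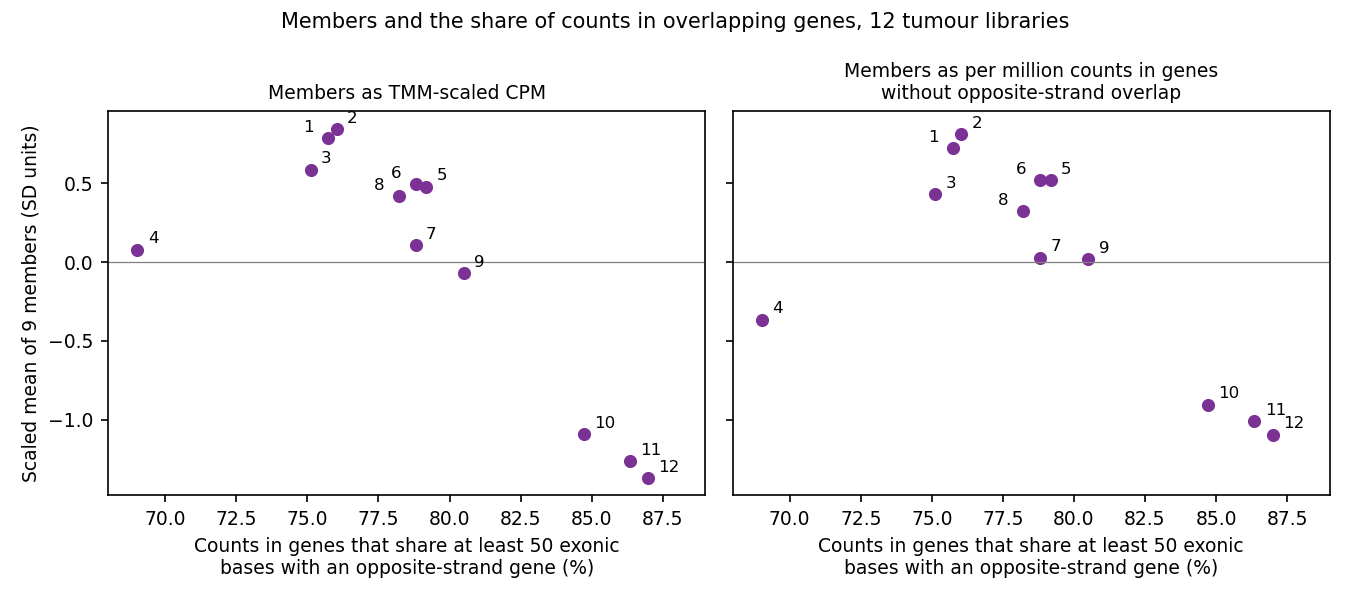
Each numbered point is a tumour library; the horizontal axis is the percentage of counts in genes sharing at least 50 exonic bases with an opposite-strand gene, and the vertical axis the scaled mean of 9 genes, from TMM-scaled CPM on the left and from counts scaled to the genes without overlap on the right. Libraries 10, 11 and 12 are at the lower right in both panels.

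Mitochondrial genes, transcribed from both strands of their circle, were read in the same libraries, here as CPM of the library total without TMM. mt-Co1 was at 407, 345 and 137 CPM in libraries 10, 11 and 12 and at 343 to 905 in the rest. mt-Nd6, encoded on the other strand, was at 9484, 15950 and 7086 CPM against 4523 to 10740. Of the genes opposite a member, Gm38092 on this scale had 1635, 1942 and 1707 CPM in libraries 10 to 12, its highest values, against 1040 to 1613 elsewhere. Dgka had 77.1, 158 and 157 CPM against 68.6 to 149. The part of the strand assignment of reads in the low values was not tested.

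Markers of other cells were read beside these values. Ptprc, which encodes CD45, had no read in any tumour library, and 7 of 8 leukocyte markers had none, their sum being 0 to 25.2 CPM. The 4 keratinocyte markers had no read, and blood endothelium markers summed to at most 12.1 CPM. Of 11 macrophage markers 7 had no read in tumour, among them Adgre1, Lyz2, C1qb and Marco. Their sum ran from 315 to 772 CPM, highest in library 12, and moved against the 9-gene mean (r = -0.82, rho -0.71). Csf1r carried nearly all of that sum, at 270 to 733 CPM, and shares 873 exonic bases with Hmgxb3 on the opposite strand. Siglec1, without such an overlap, had 60 tumour counts, at 3.03 to 58.9 CPM, highest in library 11, with r = -0.67. Cd68, also without one, had 20 tumour counts and r = -0.16, and C1qa had 1 count. Fibroblast markers summed to 18.6 to 2053 CPM, highest in library 9, with r = 0.19. Schwann cell markers, some of which melanoma cells also make, summed to 45.03 to 165.2 CPM. The part of these in the spread was not tested. The 9-gene mean had r = 0.32 with log2 library total, 0.70 without library 4, and rho 0.71.

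The 5 genes whose log2 CPM was most like the 9-gene mean over the 12 libraries, out of 10132 compared, were Wdr1 (r = 0.98), an actin-disassembly factor, Ldha (0.97), lactate dehydrogenase A, Hspd1 (0.97), a mitochondrial chaperonin, Bsg (0.97), basigin, and Prkar1a (0.96), a regulatory subunit of protein kinase A. None of these is particular to melanocytes, and all 5 had 190 to 298 spleen counts. Ldha ran from 171 to 663 CPM with a median of 503. The median r over all compared genes was 0.19, and 81 genes had r of at least 0.9.

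In the authors' deposited table of knockout against wild-type tumour cells all 10 genes had a negative log2 fold change, the property with which the list was drawn up. At an adjusted p below 0.05, 3 of the 10 were called in the authors' deposited table, beside 0.644% of its 11340 genes in either direction and 0.317% with a negative value, and nothing is read from that count. Tyrp1 had -1.11 (adjusted p = 5.697e-04) and Gpnmb -0.88 (adjusted p = 0.0034) in the authors' deposited table, and these were its 4th and 7th smallest p-values. Dct, with -0.69 (adjusted p = 0.0170), was the called gene nearest the threshold in the authors' deposited table, and Pmel, with -0.59 (adjusted p = 0.0607), the nearest one outside it. Mlana had -0.84 (0.0774), Tyr -0.69 (0.127), Slc45a2 -0.65 (0.138) and Mitf -0.47 (0.249) (adjusted p in brackets), per the authors' deposited table. Sox10 and Mc1r were nearest to 0 in the authors' deposited table, both at -0.14 (0.742 and 0.863). These 2 genes also had the lowest median r with the others over the 12 libraries. Both measures come from tumour libraries of this study, so they are not taken as independent.

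The table as a whole was not centred on 0. The median of all genes in the authors' deposited table was -0.14 and that of the 10 genes -0.67. Of the 7958 genes without coding exons opposite them, 71.6% were negative in the authors' deposited table, with a median of -0.31, and 9 of the 10 members are such genes. Of the 3382 genes with such an overlap, 27.9% were negative in the authors' deposited table, with a median of 0.25. The genes with at least 50 exonic bases opposite a member were positive in the authors' deposited table, Dgka at 0.50 (adjusted p = 0.255) and Gm38092 at 0.36 (adjusted p = 0.245). Cdk2, which shares 34 exonic bases with Pmel, was negative in the authors' deposited table at -0.33 (adjusted p = 0.478), and so was 4930435M08Rik, which lies inside Dct without a shared exonic base, at -0.07 (adjusted p = 0.922). None of these 4 was called. Pmel, whose partner is coding, was negative too, but the list was drawn up by negative values, so nothing is read from its sign.

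**Figure D5:**
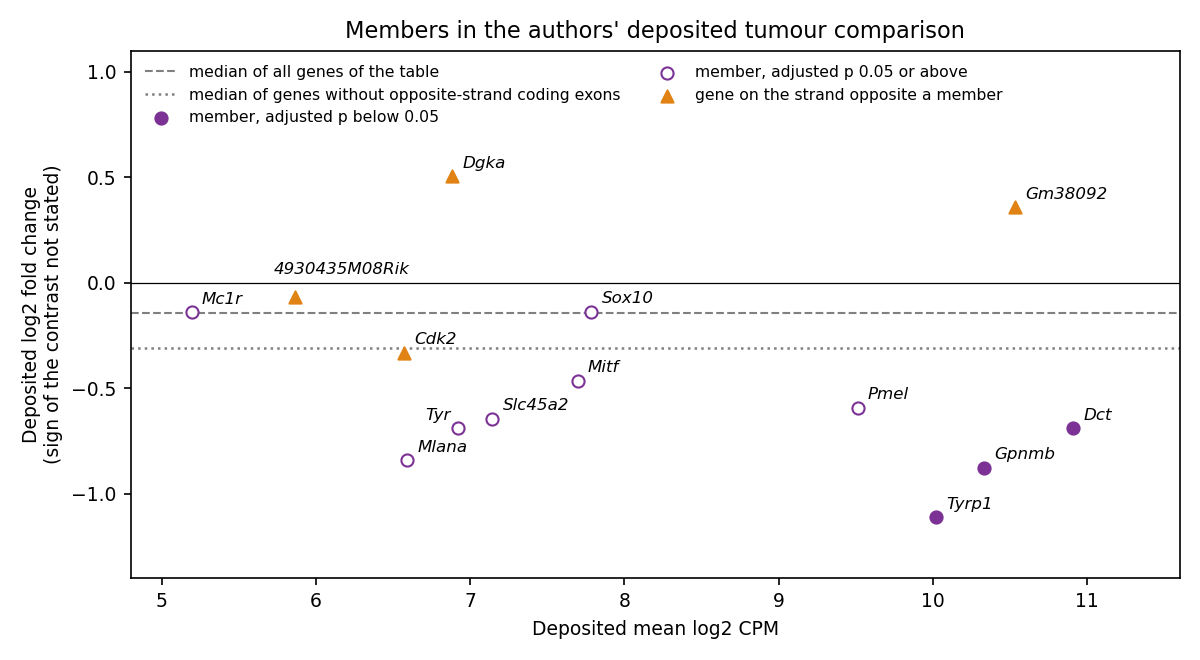
The log2 fold change (vertical) against the mean log2 CPM (horizontal), as in the authors' deposited table, for the 10 genes (circles, filled where the adjusted p is below 0.05) and 4 genes on the strand opposite a member (triangles); the dashed and dotted lines are the medians of all genes and of genes without opposite-strand coding exons. All 10 genes are below 0, Sox10 and Mc1r at the median of all genes. Genes without opposite-strand coding exons are those sharing under 50 exonic bases, translated or not, with any protein-coding gene on that strand.

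Other genes of the melanocyte programme came from lists of 5 roles. Their counts stand beside all 5143 tested genes, of which 21.6% were called higher in tumour and 25.2% lower against spleen, and 22% higher and 26.4% lower against marrow. Their signs stand beside the 58.5% of genes that were negative in the authors' deposited table as a whole, and nothing particular to a list is read from these counts. Of the signals and receptors, 1 of 9 was tested. Met, the receptor for hepatocyte growth factor, stood at 112, 429 and 706 CPM in tumour and was called higher than in spleen (log2 5.89, SE 0.42, edgeR adjusted p = 9.961e-15) and in marrow (6.32). Erbb3, a neuregulin receptor, had a mean of 18.4 CPM, Kit 4.44 and Fgfr1 2.46 CPM. Ednrb and Kitl had 2 tumour counts each, and Edn3 and Mc5r none. In the authors' deposited table Met had -0.94 (adjusted p = 0.00723) and was the called gene of the 2 present, both negative.

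Of the transcription factors, 3 of 14 were tested, and 2 were called higher in tumour than in each organ. Pax3, which acts with SOX10 on Mitf, had 34.1, 82.3 and 135 CPM and no read in either organ. Tfap2a had 24.8, 41.7 and 69.2 CPM, with 2 spleen counts. Zeb2 was at 75.4, 118 and 151 CPM and was called lower in tumour than in marrow (log2 -1.38, edgeR adjusted p = 7.493e-10) but not against spleen, where its log2 value was -0.98. Tbx2 had a mean of 27.7 CPM. The MITF relative Tfec had no tumour read, nor had Foxd3, Tbx3 or Tfap2b. Of 8 in the authors' deposited table, 6 were negative and 0 called, Pax3 at -0.52 (adjusted p = 0.264).

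Among genes of ion transport and pigment chemistry, 4 of 11 were tested and 2 called higher than in each organ. Trpm1, a cation channel whose gene hosts a microRNA, stood at 43.5, 136 and 225 CPM, with 1 spleen count. Slc24a5, a melanosomal cation exchanger, stood at 879, 990 and 1475 CPM, but also at a median of 292 CPM in spleen and 193 in marrow, and it shares 921 exonic bases with Myef2 on the other strand. Slc24a5 moved against the 9-gene mean over the 12 libraries (r = -0.93), and so did Myef2 (r = -0.72). Myef2 had 23708 counts in tumour, 98 in spleen and 50 in marrow. Whether reads of Myef2 were counted to Slc24a5, or the reverse, was not tested. Cyb561a3 and Mfsd12 had means of 43.1 and 30.1 CPM. Oca2 had 24 tumour counts and Gpr143, the ocular albinism receptor, 13. Of 8 in the authors' deposited table, 4 were negative and 0 called. Mfsd12 was called lower in tumour than in marrow (-1.02, edgeR adjusted p = 0.00376).

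Among genes of melanosome sorting and movement, 11 of 27 were tested, 6 called higher than in spleen, beside 21.6% of all tested genes, and 4 higher than in marrow, beside 22%, where 2 were called lower, beside 26.4%. Myo5a, the motor that carries melanosomes on actin, stood at 64.8, 182 and 330 CPM (log2 2.41 against spleen, SE 0.27, edgeR adjusted p = 8.639e-10). Mlph, the adaptor joining it to RAB27A, stood at 58.9, 168 and 209 CPM and had no read in either organ. Ap3d1 and Rab7, of general endosomal sorting, had means of 138 and 120 CPM. Lyst and Ap1m1 were the 2 called lower than in marrow, at -1.74 and -1.12 (edgeR adjusted p = 1.134e-06 and 4.221e-04). Of 24 in the authors' deposited table, 19 were negative, beside 58.5% of all, and 0 called.

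Of other reported MITF targets, 5 of 14 were tested, 4 called higher than in spleen and 3 higher than in marrow. Slc16a6 had a mean of 142 CPM, Cdk2 95.6, Ppargc1a, a coactivator of mitochondrial genes, 83.1 and Hif1a 75.2. Ppargc1a had 1 count in spleen and none in marrow. Cdk2 was higher by 2.98 against spleen (SE 0.28, edgeR adjusted p = 1.342e-11), and it shares 34 exonic bases with Pmel. The osteoclast targets Acp5 and Ctsk had 0 and 4 tumour counts. Of 8 in the authors' deposited table, 6 were negative and 0 called, Ppargc1a at -0.90 (adjusted p = 0.0594). Over the 5 lists, 36 of 45 genes without an overlapping protein-coding gene on the opposite strand were negative in the authors' deposited table. That is 80% beside 71.6% of all such genes. Of the 5 genes with such an overlap 1 was negative, 20% beside 27.9%.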

How the data were processed

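Per the labels' protocols, TruSeq Stranded mRNA libraries were read as 50 bp pairs. The submitters' processing notes name HISAT2, edgeR, GRCm38 and mm10; counting program, strand setting and annotation release: not given in the sources used here. The authors deposited raw counts per gene. Per the file headers, the tumour table that the authors deposited holds a log2 fold change and mean log2 CPM, an F score, a p-value and an adjusted p-value; its libraries and the sign of its contrast are not stated. Columns were mapped by tissue name, and 20 of 48 (lymph node) were not used.

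The genes and lists were chosen with earlier results of these data known. The 4 planned comparisons with lymph node could not be made, and the tests against spleen and marrow were added after the column names were seen. The 28 libraries entered 1 fit (edgeR 4.0.16, R 4.3.3, TMM, filterByExpr by group, quasi-likelihood test, Benjamini-Hochberg adjustment over all 5143 genes), tested beforehand on simulated counts. A gene was called at adjusted p below 0.05 with a log2 fold change of at least 1 in size. log2 CPM used a prior count of 2. The labels number the mice alike in spleen and marrow, so both organs may come from the same mice. Nothing in the column names shows which libraries come from the same mouse. The p-values, that of Pmel in spleen against marrow among them, take libraries as independent and measure the spread between these samples. No library pair of a group agreed within sampling noise. Strand, exons and lengths came from GENCODE M21 (GRCm38), which gave the same start and end for all 10 genes. Genes named are the 10, the 4 with the largest mean tumour CPM of each list (others chosen after their values were seen), genes sharing at least 50 exonic bases opposite a member, and the 5 most like the mean. Alternatives were DESeq2 1.42.0, library totals without TMM, no count filter, only the groups compared, another scaling of the spread, and each library left out. Python 3.11.15, numpy 2.4.6, pandas 2.3.3, scipy 1.17.1 and matplotlib 3.10.9 were used.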

Additional observations from a re-analysis of the deposited data

Results flagged for a closer look

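Pmel in spleen library 6 lay apart from the other 7 spleen libraries. Its gap to the nearest library was 0.571 of the whole range of log2 CPM, above the Dixon limit of 0.526 for 8 libraries. The value rests on 7 counts, at 29.0 CPM against 119 to 321 CPM in the others. Dgka had 1 count there, summed leukocyte markers were the lowest of the 8 at 257 CPM, and summed erythroid markers were 4780 CPM, beside 144 to 5100 CPM in the rest. Their part in the value was not tested. Pmel in spleen and in marrow were the 2 groups of 8 examined this way, and chance sets such a sign in about 1 of 20 groups.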

How the results depend on the processing

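The 9 genes called higher in tumour than in spleen and than in marrow, and Pmel in spleen over marrow, kept direction and side of the threshold with DESeq2, library totals, no count filter, only the groups compared, each library left out and, for the tumour comparisons, libraries 10, 11 and 12 left out. Apart from Pmel, these genes had 0 to 12 reads in all of an organ. No alternative could then be expected to change their direction or call, so for them this is no check. Without each library in turn 2323 to 2660 genes were called against spleen, 2411 to 2665 against marrow and 1192 to 1440 between the organs, with 9, 9 and 1 of the members. With no count filter 7327, 7483 and 4070 genes were called, beside 2405, 2488 and 1194, as 24548 genes were then tested. DESeq2 moved the median log2 fold change of all genes against spleen from 0.01 to -0.18, and against marrow from -0.03 to -0.18. With no filter the calls higher in tumour than in spleen were 34.1% in place of 46.1%, and those higher in spleen than in marrow 63.8% in place of 47.9%. At adjusted p below 0.1, 5 members were called in the authors' deposited table, and at 0.01, 2. The share of all genes called at these limits was not counted. The list was chosen by the fold changes of that comparison, so nothing is read from the 2 counts. The median coefficient of variation over the members ran from 33.8% to 41.1% with each library left out and was 22.9% without libraries 10, 11 and 12. No paired analysis was possible because column names show tissue and running number alone. The planned comparisons with lymph node, and their alternatives, were not run. Depth limits Mc1r most, at 2 to 30 counts a library, and an organ count of 0 allows up to 1.09 CPM in spleen and 0.826 CPM in marrow.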
